A study of Mus musculus with 3 samples.

Results

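Brown adipocyte (BA) nuclei of untreated mouse brown adipose tissue (BAT) were split by whether their own Ucp1 transcript was detected, so the 2 groups were chosen by measured Ucp1 UMIs and Ucp1 itself is given without a test. Of 13707 barcodes in the untreated library, 7298 had at least 800 unique molecular identifiers (UMIs, the tags by which amplified copies of a captured molecule are counted once) and at most 50% mitochondrial UMIs. Of these, 4034 were taken as BA nuclei: at least 4 UMIs over Adipoq, Plin1, Pparg, Cidea and Ppara, at least 4 times as many of these as of 6 endothelial genes (Pecam1, Flt1, Kdr, Ptprb, Cyyr1 and Adgrl4), and 0 UMIs of the white adipocyte genes Slc7a10, Trhde, Nnat and Retn. Ucp1 had at least 2 UMIs in 630 BA nuclei, 1 UMI in 901 and 0 UMIs in 2503. Matching on total UMIs, in bins of 0.25 on the log2 scale, left 628 nuclei with at least 2 Ucp1 UMIs and 628 with 0, or 1256 of the 44897 barcodes of the series.

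The series holds 3 libraries, 1 each of untreated, sham-operated and denervated BAT of adult wild-type C57Bl6 mice as labelled. The header of the denervated table carries a run name with KO in it, against its label, so the values of that library and of the fit over all 3 rest on the label. The study pooled 20 mice for the untreated and for the denervated library and took denervated BAT 3 days after denervation. It used male mice only, and the denervation was unilateral. Its legend for the denervated library also lists tamoxifen, while that for the untreated library names none, so these libraries may differ in more than denervation. Nuclei came from the layer of digested BAT that floats, in which BAs lie together with pieces of vessel, and went through the BD Rhapsody whole-transcriptome workflow. With 1 library per condition there was no replicate within a condition, and the sham and denervated libraries were split in the same way to see which differences came back.

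UCP1 is the protein of the mitochondrial inner membrane that lets protons back into the matrix without making ATP, so that the energy of fuel oxidation leaves as heat. Noradrenaline from sympathetic nerves acts on β-adrenergic receptors of BAs, the Gs protein raises cAMP, and protein kinase A drives both lipolysis and Ucp1 transcription. BAs also rebuild triglyceride from fatty acids and glycerol-3-phosphate, and burn fatty acids in a dense set of respiratory chains.

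The sequence just before the start of Ucp1 is shown because this gene defined the split. Those of Hspa1b and Hspa1a, which code for the stress-inducible Hsp70 chaperones, are shown because Hspa1b was 1 of the 6 genes that differed and Hspa1a is its near copy. All 3 are the 250 bases before the annotated start in RefSeq (GRCm38.p6), written from 5′ to 3′ on the gene's own strand: chr8:83290098-83290347 on the plus strand for Ucp1, chr17:34959239-34959488 on the minus strand for Hspa1b and chr17:34972157-34972406 on the minus strand for Hspa1a. Capitals mark TGACG, the core of the cAMP response element, in Ucp1, and GAANNTTC, the core of the heat shock element, in both Hsp70 genes.
Ucp1: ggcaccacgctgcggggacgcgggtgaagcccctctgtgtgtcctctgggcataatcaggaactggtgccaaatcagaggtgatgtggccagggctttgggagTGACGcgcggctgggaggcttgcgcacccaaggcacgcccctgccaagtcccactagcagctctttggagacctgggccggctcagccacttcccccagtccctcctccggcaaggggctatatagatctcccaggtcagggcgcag
Hspa1b: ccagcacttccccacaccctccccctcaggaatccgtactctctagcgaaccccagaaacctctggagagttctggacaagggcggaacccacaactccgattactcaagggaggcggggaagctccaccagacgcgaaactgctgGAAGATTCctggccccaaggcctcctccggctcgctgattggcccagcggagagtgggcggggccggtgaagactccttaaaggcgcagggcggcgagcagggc
Hspa1a: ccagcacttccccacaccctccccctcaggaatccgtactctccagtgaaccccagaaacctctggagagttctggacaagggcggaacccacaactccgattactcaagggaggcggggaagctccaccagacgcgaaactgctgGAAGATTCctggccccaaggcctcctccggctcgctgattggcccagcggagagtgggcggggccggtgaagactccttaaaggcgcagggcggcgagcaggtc

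TGACG, searched on both strands, began 147 bases before the Ucp1 start and was found in 17.8% of 32851 promoter windows of the same length. GAANNTTC reads the same on both strands. It began 104 bases before the start of both Hsp70 genes and was found in 6.69% of the windows. The windows of Hspa1b and Hspa1a were identical at 247 of 250 positions. The counts do not say how reads that fit both Hsp70 genes were assigned, so the division of UMIs between Hspa1b and Hspa1a is uncertain. A match of letters is a description and was not tested as a binding site.

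The untreated, sham and denervated tables held between 9420030 and 14971579 UMIs over 13707 to 15822 barcodes. The libraries shared between 251 and 278 barcode sequences per pair, of which 10 to 16 were BA nuclei in both. Of the untreated nuclei at the limit of the rule, 159 had exactly 4 UMIs of the BA genes and were inside, 83 had 3 and were outside, 539 with at least 4 had too many endothelial UMIs, and 234 had a white adipocyte UMI. The sham library gave 2697 BA nuclei, 372 with at least 2 Ucp1 UMIs and 1744 with 0, and 368 of each after matching. The denervated library gave 2782, 285 and 1950, and 284 of each after matching.

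Most untreated BA nuclei showed little or no Ucp1 RNA at this depth. Ucp1 (chr8:83290352-83298452 on GRCm38, a protein-coding gene) had 2712 UMIs in all, a mean of 0.672 per BA nucleus and 344 counts per 1000000 UMIs (CPM). At least 2 UMIs were seen in 15.6% of BA nuclei (exact 95% interval 14.5% to 16.8%), 1 UMI in 22.3% and 0 in 62.0%, and 3.37% had 4 or more, up to 19 in a nucleus. All intervals here cover counting error only.

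Endothelial cell (EC) nuclei, which should lack Ucp1, gave the background of free RNA. Taken by the mirror rule (at least 4 endothelial UMIs, and at least 4 times as many as of the BA genes), 1815 EC nuclei had at least 2 Ucp1 UMIs in 1.05% (0.631% to 1.63%) and at least 1 in 9.31%, with median depths of 1015 UMIs in EC and 1904 UMIs in BA nuclei. Of nuclei with 1024 to 1449 UMIs, 6.41% of 765 BA nuclei (4.78% to 8.38%) and 1.57% of 702 EC nuclei (0.785% to 2.79%) had at least 2. At 2048 to 2897 UMIs, the depth of a typical compared nucleus, 20.4% of 1320 BA nuclei and 0 of 26 EC nuclei (0% to 13.2%) did. So few EC nuclei leave the untreated background at that depth uncertain. Exactly 1 Ucp1 UMI was seen in 8.26% of EC nuclei, and BA nuclei with 1 UMI were kept out of both groups. In the sham library the shares with at least 2 were 13.8% of BA and 1.07% of EC nuclei, and in the denervated library 10.2% of BA nuclei and 2.91% of 172 EC nuclei. At 1449 to 2048 UMIs the denervated library had at least 2 in 4 of 24 EC nuclei (16.7%, 4.74% to 37.4%) and in 15.4% of BA nuclei. These EC nuclei were too few to set the background at that depth. At 800 to 1024 UMIs it had at least 2 in 0 of 88 EC nuclei and 5.54% of BA nuclei. At 1024 to 1449 UMIs it had them in 1 of 47 EC nuclei and 9.44% of BA nuclei.

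**Figure D1:**
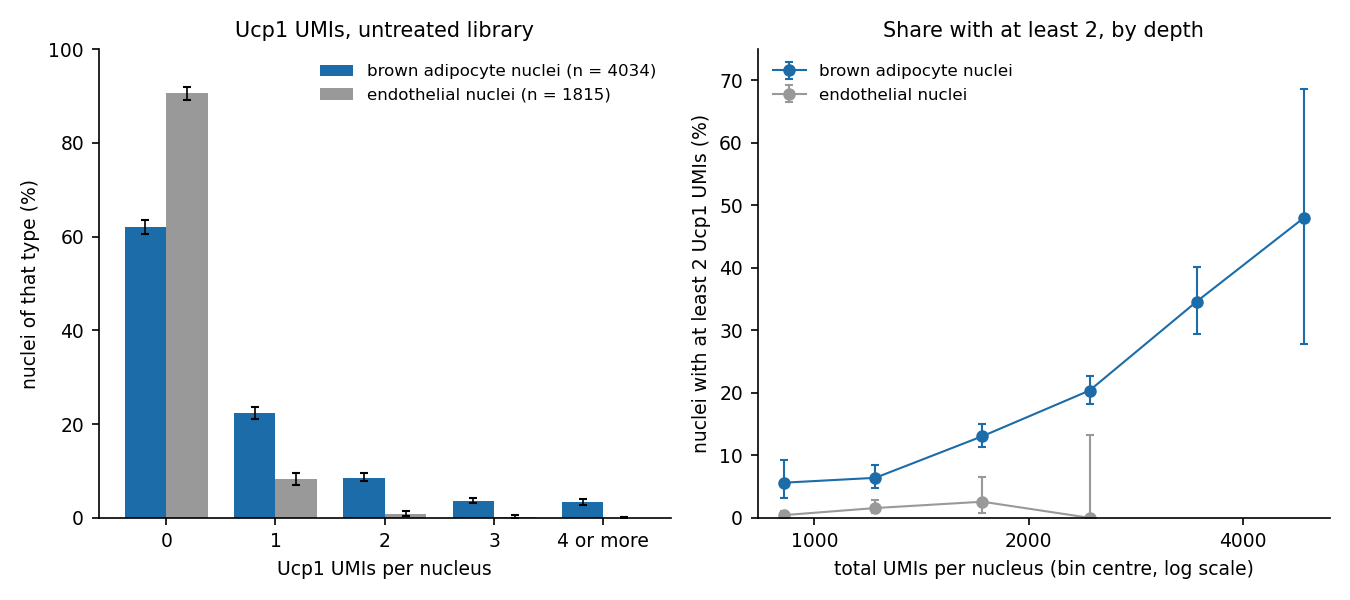
Left, share of BA and EC nuclei of the untreated library (%, bars from 0) with 0, 1, 2, 3 or at least 4 Ucp1 UMIs. Right, share with at least 2 Ucp1 UMIs (%) by total UMIs per nucleus (log axis, bin centres). Error bars are exact 95% binomial intervals. The BA share climbs from 5.62% in the shallowest bin to 48% of 25 nuclei in the deepest, while EC nuclei stay at or under 2.58%. The deepest EC point rests on 26 nuclei (upper bound 13.2%), and no EC point is shown above 2897 UMIs.

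The split went with depth. The share of BA nuclei with at least 2 Ucp1 UMIs was 5.62% at 800 to 1024 UMIs, 13.1% at 1449 to 2048, 20.4% at 2048 to 2897 and 34.6% at 2897 to 4096. Before matching, the median was 2268 UMIs in nuclei with at least 2, 2026 with 1 and 1766 with 0. After matching it was 2266 against 2208, with 3.06% and 3.10% mitochondrial UMIs. A nucleus with 0 Ucp1 UMIs is therefore one in which the transcript was not sampled, and was not shown to lack it.

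Beyond depth, Ucp1 UMIs were spread unevenly over BA nuclei. Their Pearson dispersion, the variance around what a nucleus's depth predicts over that prediction (1 if every BA nucleus had the same Ucp1 share), was 1.94 in untreated BAT, above 97.5% of the 1016 genes within a factor of 2 of its UMIs, whose median was 1.33. It was 2.50 in the sham library (above 97.5% of 806 genes) and 1.63 in the denervated library (above 95.8% of 997). Among untreated BA nuclei, Adipoq, which codes for the adipokine adiponectin, had 1.15, and Kit, the receptor of stem cell factor (SCF), had 1.24. Adipoq was among the genes used to choose these nuclei, which may limit its spread. The 2 Hsp70 genes were far more uneven, with 9.18 for Hspa1a and 7.74 for Hspa1b.

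Across the transcriptome, the 2 matched untreated groups differed little. UMIs were summed per group, Ucp1 left out (1447453 with and 1434196 without Ucp1 UMIs), and compared as a log2 ratio for the 3255 genes with at least 200 UMIs over both groups. The ratio was at least 0.3 for 159 genes, 4.88% of those compared, and at most −0.3 for 149 genes, 4.58%. The ratios had an SD of 0.176 on the log2 scale while the median width of a gene's 95% counting interval was 0.5997. None of the 86 genes with at least 3000 UMIs passed 0.3 in size, and of the 332 genes with 1000 to 3000 UMIs 2 did, both lower.

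**Figure D2:**
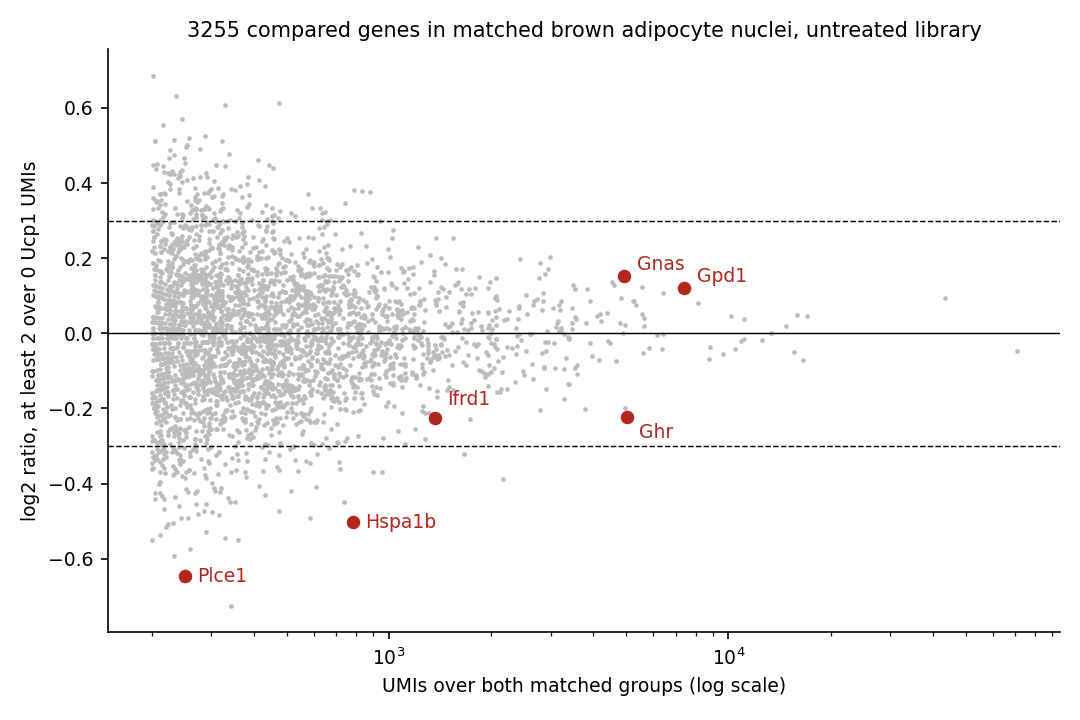
Each point is 1 of the 3255 genes compared in untreated BA nuclei, with its UMIs over both matched groups (log axis) and its log2 ratio of summed UMIs, nuclei with at least 2 over nuclei with 0 Ucp1 UMIs. Dashed lines mark 0.3 in either direction. The cloud narrows from 131 genes above and 120 below the lines at 200 to 400 UMIs to 0 genes at 3000 or more. The 6 named genes are those that passed the fit over the 3 libraries.

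The largest ratios belonged to genes with few UMIs. The 12 largest ran from 0.51 (Btrc, an F-box protein that marks β-catenin for destruction) to 0.69 (Pcbd2) and also held the ribosomal protein gene Rps27 and the translation genes Eif3j1 and Eif2ak4. Pcbd2 had 125 UMIs in nuclei with Ucp1 UMIs and 77 without. The 12 smallest reached −0.73 (Rbm10, a splicing regulator, 130 against 213 UMIs) and held Cish, a cytokine-induced inhibitor of STAT signalling, and Plce1. Of the 12 largest, 6 were above 0 in the sham and 6 in the denervated library. Of the 12 smallest, 8 and 6 were below 0 there. Only 1 gene of each 12 reached 200 UMIs in the sham library and none did in the denervated library, so the depth there could not show whether such ratios came back.

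Background was higher in the shallower libraries. In the sham library 7.66% of 1253 compared genes were at or above 0.3 and 9.26% at or below −0.3, and in the denervated library 11.1% and 7.84% of 740. Over the 669 genes compared in all 3 libraries, Pearson's r of the ratios was 0.22 between untreated and sham, 0.26 between untreated and denervated and 0.22 between sham and denervated, and the sign was the same for 56.4%, 58.6% and 54.7%. These are correlations across genes, which are not independent. Of the 669, only Hspa1b passed 0.3 in the same direction in all 3 libraries.

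To ask which differences held across libraries, the summed UMIs of the 2 matched groups in the 3 libraries were fitted with edgeR's quasi-likelihood test, the library as a term, for 3711 genes with at least 300 UMIs. This fit was added after the ratios had been seen. It called 2 genes higher (0.0539% of those tested) and 4 lower (0.108%) in nuclei with Ucp1 UMIs at a Benjamini-Hochberg adjusted p below 0.05, and at an unadjusted p below 0.05 there were 135 higher (3.64%) and 118 lower (3.18%). Higher were Gnas and Gpd1, lower were Ghr, Ifrd1, Hspa1b and Plce1. Of these, Hspa1b and Plce1, Gnas and Gpd1 fall under the rule for named genes, while Ghr and Ifrd1 are named because the fit called them.

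Gnas (chr2:174284320-174346744), which codes for the α subunit of Gs that couples β-adrenergic receptors to cAMP, had 2608 UMIs in the untreated nuclei with Ucp1 UMIs and 2325 in those without. In the sham library it had 1672 against 1362 UMIs and in the denervated library 866 against 650. The log2 ratio was above 0 in every library, 0.15 (95% interval 0.07 to 0.23), 0.30 and 0.42 in this order. The fit gave a log2 fold of 0.28 ± 0.067 (SE, 3 libraries, edgeR adjusted p = 0.018).

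Gpd1 (chr15:99717515-99725005) codes for the cytosolic enzyme that makes glycerol-3-phosphate, the backbone of triglyceride. It had 3879 against 3534 UMIs in the untreated library, 1045 against 794 in the sham and 1110 against 891 in the denervated library. The log2 ratios were 0.12 (0.05 to 0.19), 0.40 and 0.32, and the fit gave 0.27 ± 0.067 (edgeR adjusted p = 0.032). Both genes that rose were thus smallest in size in the untreated library.

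Ghr (chr15:3317760-3583492), the growth hormone receptor gene, was lower in nuclei with Ucp1 UMIs. Its UMIs were 2330 against 2694 in the untreated library, 1201 against 1516 in the sham and 835 against 1075 in the denervated library. The log2 ratios of −0.22 (−0.30 to −0.14), −0.33 and −0.36 lay close together, and the fit gave −0.29 ± 0.067 (edgeR adjusted p = 0.0093).

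Ifrd1 (chr12:40201567-40248504), a co-regulator of transcription, had 633 against 733 UMIs in the untreated library, 332 against 446 in the sham and 170 against 292 in the denervated library. Its log2 ratios were −0.22 (−0.38 to −0.07), −0.42 and −0.78, and the fit gave −0.42 ± 0.086 (edgeR adjusted p = 0.0049). At least 1 Ifrd1 UMI was seen in 53.3% of untreated nuclei with Ucp1 UMIs and in 57.2% of those without.

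Hspa1b (chr17:34956436-34959238) had 325 against 456 UMIs in the untreated library, 376 against 495 in the sham and 83 against 120 in the denervated library. Its log2 ratios of −0.50 (−0.71 to −0.29), −0.39 and −0.53 were alike, and the fit gave −0.45 ± 0.096 (edgeR adjusted p = 0.0049). In untreated BAT 28.2% of nuclei with and 33.1% of nuclei without Ucp1 UMIs had an Hspa1b UMI. Its near copy Hspa1a had 346 against 369 UMIs in untreated BAT and did not pass (log2 fold −0.35 ± 0.101, edgeR adjusted p = 0.126), but passed in a second random draw of nuclei (0.00043) and in the sham and denervated libraries alone (0.049), where Hspa1b did not (0.151).

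Plce1 (chr19:38481109-38785030), which codes for phospholipase C epsilon, was the call with the fewest molecules. It had 98 against 152 UMIs in the untreated library, 24 against 55 in the sham and 34 against 50 in the denervated library, where the interval of the ratio reached above 0. The fit gave −0.73 ± 0.165 (edgeR adjusted p = 0.0093). Nuclei with a Plce1 UMI made up 10.7% of untreated nuclei with and 16.6% of those without Ucp1 UMIs.

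**Figure D3:**
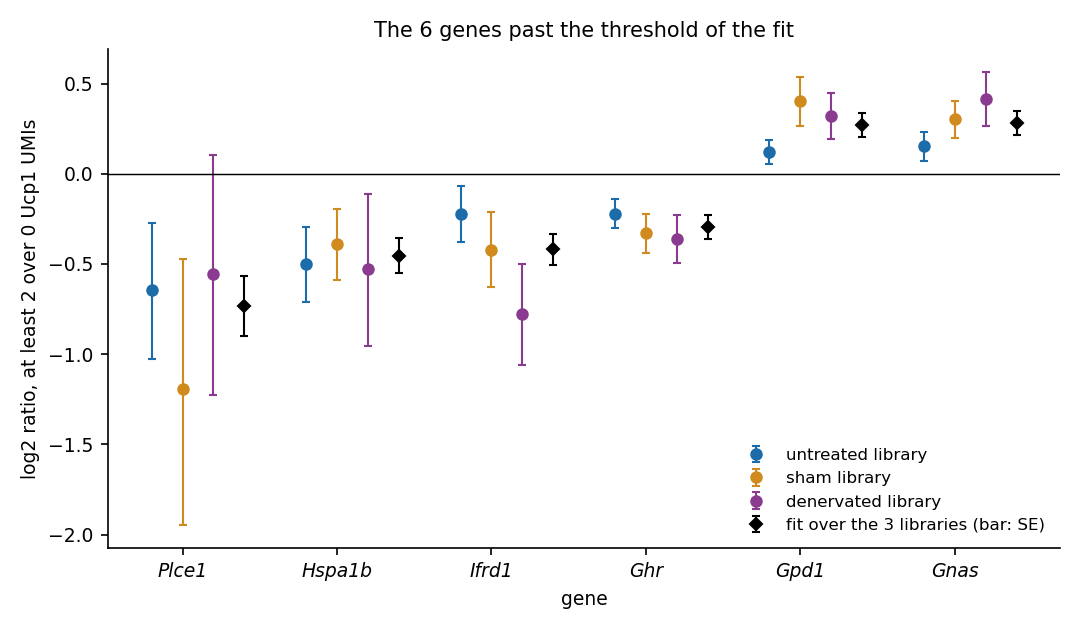
The 6 genes called by the fit, each with its log2 ratio (at least 2 over 0 Ucp1 UMIs) in each of the 3 libraries with exact 95% counting intervals, and the fitted log2 fold with its SE. All 3 libraries lie below 0 for Plce1, Hspa1b, Ifrd1 and Ghr and above 0 for Gpd1 and Gnas. The interval of Plce1 in the denervated library reaches 0.10.

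These calls were sensitive to which nuclei without Ucp1 UMIs were drawn. A second random draw gave 12 calls, with Gnas, Ghr, Hspa1b and Ifrd1 among them but not Gpd1 (adjusted p = 0.148) or Plce1 (0.0924), and using all nuclei with weights in place of a draw gave 8, with 5 of the 6 but not Ifrd1. The sham and denervated libraries alone called 8 genes, among them Gnas, Gpd1, Ghr and Ifrd1. Both libraries had entered the fit that chose the 6 genes, so these shared calls are no separate support. Plce1 had too few UMIs to be tested there. Without the sham library 0 genes passed and without the denervated library only Hspa1b did. The fitted folds without the sham library were −0.50 for Hspa1b, −0.42 for Ifrd1, −0.28 for Ghr, −0.61 for Plce1, 0.27 for Gnas and 0.21 for Gpd1. No gene passed without the 25% of nuclei richest in heat shock UMIs, or when matched also on the mitochondrial share. None passed with no endothelial UMI allowed, or with DESeq2. The fitted fold of Gnas was 0.31 in the first, 0.30 in the third and 0.29 in the last of these alternatives, and that of Ghr was −0.17, −0.27 and −0.29. DESeq2 gave 41 of 3711 genes an unadjusted p below 0.05, against 253 (6.82%) in the edgeR fit. Ifrd1 shrank to −0.17 without the nuclei rich in heat shock UMIs and to −0.26 with no endothelial UMI.

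Nuclear genes of the respiratory chain mostly had small fitted folds above 0. Of 54 nuclear genes of the respiratory chain tested, 53 had a fitted log2 fold above 0 (median 0.13), against 50.5% of all 3711 genes (median 0.0025). Genes summed over the same nuclei are not independent. Counts of list members, here and in the lists below, are therefore descriptions, and their cause was not tested. At an unadjusted p below 0.05, 12 were higher, against 3.64% of all genes, and none was lower. After adjustment none passed. The lowest p was that of Cox6a1, a cytochrome c oxidase subunit, with 754 against 626 UMIs in untreated BAT and a fitted fold of 0.25 ± 0.084 (edgeR adjusted p = 0.314). In the untreated library alone 47 of 53 were above 0 with a median of 0.11, against −0.0012 over all 3255 genes compared there. The median of this list stayed between 0.055 and 0.15 under the 18 alternatives. Atp5a1, of the ATP synthase, had 1843 against 1684 UMIs and Sdha, of complex II, 837 against 736. Of the 53 compared in the untreated library, 1 was at or above 0.3 (Ndufa8, 184 against 141 UMIs), against 4.88% of all genes compared there.

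Genes on the mitochondrial chromosome differed by less, and the difference from the nuclear genes was not tested. In the untreated library 5 of 11 were above 0 with a median of −0.0039, and mt-Co2, a core subunit of cytochrome c oxidase, had 7680 against 7872 UMIs. Their median was 0.11 in the sham and −0.029 in the denervated library. In the fit 10 of 11 were above 0 with a median of 0.045, all 10 compared in the sham library were above 0, and none had an unadjusted p below 0.05.

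Of 19 tested genes of thermogenic identity other than Ucp1, 17 had a fitted fold above 0 with a median of 0.14, against 50.5% of all 3711 genes. None passed after adjustment. In the untreated library 12 of 18 were above 0 with a median of 0.069, against a median of −0.0012 over all 3255 genes compared there. Cidea, a lipid droplet protein high in brown fat and used in the choice of nuclei, had 2026 against 1890 UMIs in untreated BAT. Kcnk3, a potassium channel, had 1462 against 1308 and a fitted fold of 0.17 ± 0.073 (edgeR adjusted p = 0.579). Ppargc1b, a coactivator of mitochondrial genes, had 1757 against 1707. Esrrg, an orphan nuclear receptor of mitochondrial genes, lay the other way, with 990 against 1093 UMIs and −0.19 ± 0.080 (edgeR adjusted p = 0.579).

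Most fuel genes of 3 lists had fitted folds above 0, with lower medians in untreated BAT than in the fit, and none of them passed after adjustment. Of all 3711 genes 50.5% were above 0 in the fit, and the untreated median over all 3255 genes compared was −0.0012. Of 22 fatty acid oxidation genes tested, 17 had a fitted fold above 0 (median 0.16), and in the untreated library 15 of 21 were above 0 (median 0.055). Hadha, of the mitochondrial trifunctional protein, had 970 against 867 UMIs in untreated BAT and 0.30 ± 0.084 in the fit (edgeR adjusted p = 0.121), and Slc25a20, the carnitine-acylcarnitine carrier, had 661 against 558. Citric acid cycle and carrier genes were above 0 in the fit for 22 of 28 (median 0.12) and in the untreated library for 21 of 28 (median 0.063), with Ogdh at 1485 against 1292 UMIs and Cs, citrate synthase, at 1580 against 1536. Of 27 glucose and glycogen genes 22 were above 0 in the fit (median 0.14) and 18 of 26 in the untreated library (median 0.040), among them Aldoa with 2907 against 2643 UMIs and Pygl, glycogen phosphorylase, with 2250 against 2146. Gbe1, the glycogen branching enzyme, had 1730 against 1849. Insulin signalling genes gave 6 of 15 above 0 in the fit (median −0.027) and 4 of 14 in the untreated library (median −0.039), with Pik3r1, a regulatory subunit of PI3-kinase, at 1384 against 1520 UMIs.

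Triglyceride synthesis was the list of the called gene Gpd1. Its other members were above 0 in 9 of 11 tested, with Dgat2, which adds the last fatty acid, at 1527 against 1355 UMIs in untreated BAT, Pck1 at 1567 against 1379 and Lpin1 at 2409 against 2185. In the untreated library the list's median log2 ratio was 0.12 over 11 compared genes. Gpd1 is among them and holds the middle place, so this median is its own ratio. Fatty acid synthesis gave 14 of 18 above 0 in the fit (median 0.11) but 9 of 18 in the untreated library (median 0.011). Scd1, the Δ9 desaturase, had 22563 against 20951 UMIs and Fasn, fatty acid synthase, 8686 against 8328, while Acaca, acetyl-CoA carboxylase, had 8142 against 8476 and Acly 6266 against 6291. Lipolysis and droplet genes were above 0 in the fit for 13 of 16 (median 0.11) and in the untreated library for 13 of 15 (median 0.059). Lipe, hormone-sensitive lipase, had 2136 against 2042 UMIs and Plin1 2280 against 2378. The share of all 3711 genes above 0 in the fit was 50.5%.

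The adrenergic and cAMP list, from receptor to kinase, was not lifted as a whole. Of 24 genes tested, 13 were above 0 with a median of 0.041, and Gnas was the 1 call. Prkaca, a catalytic subunit of protein kinase A, had 375 against 327 UMIs and 0.31 ± 0.106 in the fit (edgeR adjusted p = 0.314). Sik2, a kinase that protein kinase A inhibits, had 2510 against 2330 UMIs in untreated BAT, but a fitted fold of −0.02 over the 3 libraries. Pde4d, which breaks down cAMP, had 1503 against 1587 UMIs. Adrb1, the β1-adrenergic receptor, had 208 UMIs in both untreated groups, and 0.36 ± 0.154 in the fit (edgeR adjusted p = 0.579). The β3-adrenergic receptor gene Adrb3, with more counts than Adrb1, had a fitted fold of −0.0042 ± 0.078 (edgeR adjusted p = 0.992). Adra1a, an α1-adrenergic receptor gene, had −0.05 ± 0.088 (edgeR adjusted p = 0.956).

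Most heat shock genes had fitted folds below 0. Of 18 tested, 4 were above 0 (median −0.19), against 50.5% of all 3711 genes. At an unadjusted p below 0.05, 8 were lower and 2 higher (Dnajb4 and Chordc1), against 3.18% and 3.64% of all genes. Hspa1b alone passed after adjustment. In a second random draw Hspa1a, Hsp90aa1, Hspb1 and Dnajb1 passed as well (edgeR adjusted p from 0.00043 to 0.012). With no endothelial UMI allowed they shrank, Hspa1a to −0.10, Hsp90aa1 to −0.17, Hspb1 to −0.20 and Dnajb1 to −0.23 (adjusted p from 0.795 to 0.946), and without the sham library Hsp90aa1 was at −0.17 and Dnajb1 at −0.22. The untreated library showed it least. Its median was −0.056 over 18 genes with 6 above 0, against −0.30 over 13 genes in the sham and −0.53 over 5 in the denervated library. In the untreated library 2 of the 18 were at or above 0.3 and 1 at or below −0.3, against 4.88% and 4.58% of all 3255 genes compared. Hsp90aa1, the inducible Hsp90, had 608 against 599 UMIs in untreated BAT, 455 against 675 in the sham and 141 against 205 in the denervated library (log2 fold −0.32 ± 0.086, edgeR adjusted p = 0.0776). Dnajb1, a co-chaperone of Hsp70, had 191 against 206, 281 against 412 and 31 against 47 UMIs. Hspa8, the constitutive Hsc70, had 738 against 761 UMIs in untreated BAT and Dnajb4 went the other way with 128 against 96.

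Immediate early genes, switched on within minutes of a stimulus or of handling, also leaned lower, most in the sham library. Of 10 tested, 1 was above 0 (median −0.30), against 50.5% of all 3711 genes. At an unadjusted p below 0.05, 6 were lower, against 3.18% of all genes, and none passed after adjustment. Klf6 had 141 against 174 UMIs in untreated BAT, 25 against 66 in the sham and 37 against 53 in the denervated library (log2 fold −0.57 ± 0.157, edgeR adjusted p = 0.0799). Jund had 522 against 564, 143 against 227 and 165 against 185 UMIs. Jun had 449 against 483 UMIs in untreated BAT and Cyr61 215 against 206, and 2 of the 5 genes compared there were above 0. The untreated median of this list, −0.12 over 5 genes, became 0.12 in a second random draw. Some markers of other cells moved with the heat shock and immediate early genes outside untreated BAT. The 10 pericyte markers summed to 488 CPM in nuclei with and 726 CPM in nuclei without Ucp1 UMIs in the sham library and to 266 and 359 CPM in the denervated library, where the 8 Schwann cell markers summed to 191 and 251 CPM. Smooth muscle markers summed to 78.9 and 104 CPM in the sham and to 83.8 and 100 CPM in the denervated library. Skeletal muscle markers were also lower, from at most 10 UMIs per group. Fibroblast and progenitor markers were at 277 against 316 CPM in the sham but 361 against 323 CPM in the denervated library. The 13 endothelial markers outside the rule were at 262 and 269 CPM in the sham and 390 and 371 CPM in the denervated library. Immune markers were at 16.1 against 14.4 and 47.9 against 31.1 CPM in this order. The part of such RNA in these results was not tested.

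**Figure D4:**
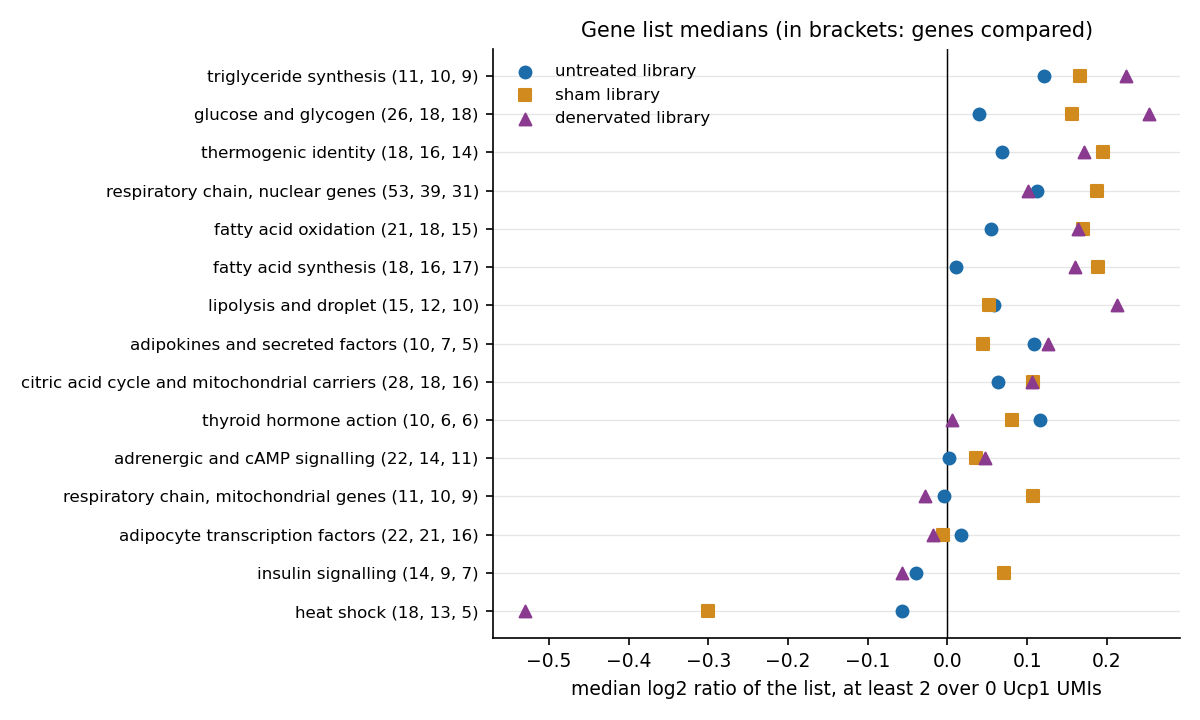
Median log2 ratio of each gene list (at least 2 over 0 Ucp1 UMIs) in the untreated, sham and denervated libraries, for the 15 lists with at least 5 genes compared in each library. Numbers in brackets are the genes compared in this order. Heat shock lies lowest, at −0.056, −0.30 and −0.53, and the nuclear respiratory chain lies at 0.11, 0.19 and 0.10.

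Transcription factors of adipocytes were balanced, with 12 of 24 fitted folds above 0 and a median of 0.00042. Pparg, the master regulator of adipocytes, had 3163 against 3225 UMIs in untreated BAT and Nfia 1692 against 1692. Ebf1, an early B-cell factor active in adipocytes, had 2327 against 2644 in untreated BAT, 1039 against 1216 in the sham and 640 against 759 in the denervated library (log2 fold −0.21 ± 0.068, edgeR adjusted p = 0.272). Of the secreted factors, Adipoq had 360 against 303 UMIs and Vegfa, the vascular growth factor, 1809 against 1745. Thrsp, a thyroid-responsive lipogenic gene, had 3332 against 3062 UMIs and a fitted fold of 0.21 ± 0.069 (edgeR adjusted p = 0.272).

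The other lists had no call either. Lipoprotein uptake was above 0 for 6 of 12 (median 0.010), cholesterol for 4 of 10, the circadian clock for 4 of 12, the unfolded protein response for 8 of 12, amino acid use for 8 of 14, glucocorticoid-responsive genes for 4 of 7, nuclear long noncoding RNAs for 1 of 5 and futile cycles for 1 of 3. Lpl, lipoprotein lipase, had 2433 against 2367 UMIs, Atf4 545 against 510 and Malat1 34867 against 35681.

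Kit (chr5:75574916-75656722), the receptor on which the study centred, showed no shared direction over the libraries. It had 479 UMIs in untreated nuclei with and 443 in nuclei without Ucp1 UMIs, a log2 ratio of 0.10 (−0.09 to 0.29). The ratio was −0.40 in the sham and 0.20 in the denervated library. The sham and denervated ratios each rest on fewer than 200 UMIs, below the minimum for a compared gene, so their directions are uncertain. The fit gave Kit a log2 fold of 0.08 ± 0.119 (edgeR adjusted p = 0.940). Of 10 tested genes of its pathway 4 were above 0 with a median of −0.048, and none had an unadjusted p below 0.05.

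Taking the untreated nuclei apart by number of Ucp1 UMIs did not give steps of equal direction for all 6 genes. Nuclei with 1 Ucp1 UMI, which are in neither main group, were set against the same number with 0 (901 each), then nuclei with 2 (347 each) and with at least 3 (283 each). The nuclei with 2 and with at least 3 are those of the main group, on which the choice of the 6 genes rests in part. Gpd1 gave log2 ratios of 0.11 (0.05 to 0.17), 0.09 (−0.00058 to 0.18) and 0.19 (0.10 to 0.29), and Gnas 0.07, 0.15 and 0.13. Hspa1b gave −0.37 (−0.53 to −0.21), −0.25 and −0.53, and Ghr −0.08, −0.27 and −0.19. Ifrd1 gave −0.20, −0.24 and −0.06 (−0.30 to 0.18). Plce1 turned from −0.14 and −1.04 to 0.21 (−0.37 to 0.80) in the nuclei with most Ucp1.

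**Figure D5:**
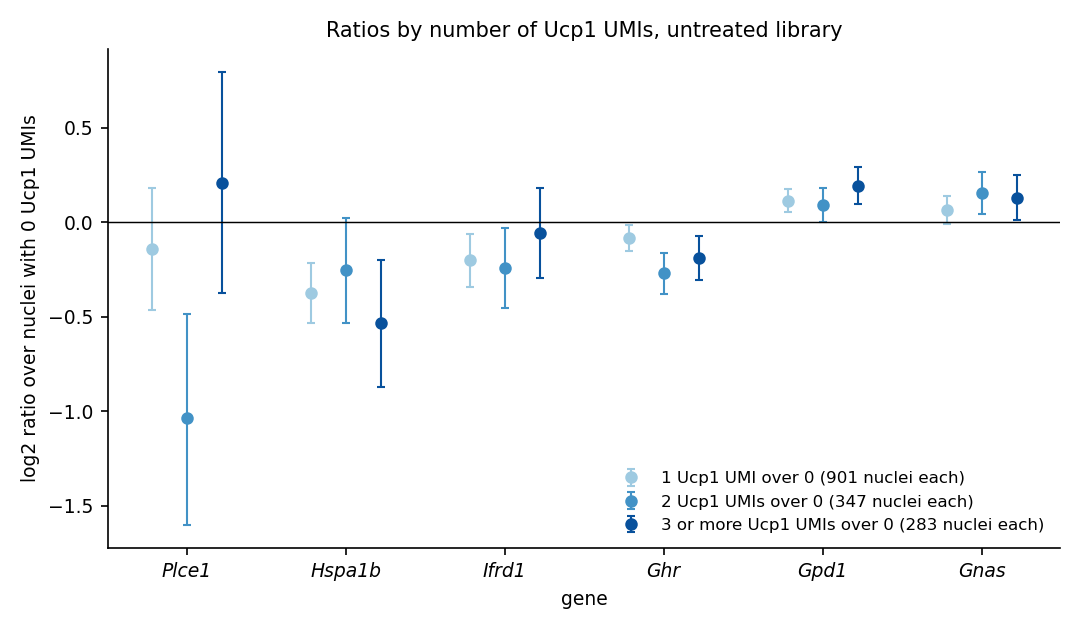
Log2 ratio of summed UMIs in untreated BA nuclei with 1, 2 or at least 3 Ucp1 UMIs over depth-matched nuclei with 0, for the 6 genes called by the fit, with exact 95% counting intervals. Points stay below 0 for Hspa1b, Ifrd1 and Ghr and above 0 for Gpd1 and Gnas, while Plce1 lies at 0.21 with at least 3.

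Splitting the matched untreated nuclei at 2243.5 UMIs gave the same sign above and below for all 6 genes. The same nuclei entered the fit that chose these genes, so the shared sign is no separate support. Gnas had a log2 ratio of 0.29 (0.17 to 0.42) in the shallower and 0.07 (−0.04 to 0.17) in the deeper nuclei, and Plce1 −1.49 and −0.15. Ghr lay at −0.24 and −0.20, Hspa1b at −0.49 and −0.38, Ifrd1 at −0.29 and −0.14 and Gpd1 at 0.15 and 0.10. The intervals of the deeper nuclei reached 0 for Gnas, Ifrd1 and Plce1.

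RNA of most other cell types differed little between the matched untreated groups. The 13 endothelial markers that the rule did not use summed to 330 CPM with and 333 CPM without Ucp1 UMIs. The 6 endothelial genes of the rule, capped by it in both groups, summed to 242 and 246 CPM. Pericyte markers summed to 306 and 319 CPM, fibroblast and progenitor markers to 377 and 375, Schwann cell markers to 202 and 192, smooth muscle markers to 89.8 and 82.3, immune markers to 25.6 and 25.8 and skeletal muscle markers, from 16 and 9 UMIs, to 11.1 and 6.28. The white adipocyte genes of the rule were at 0 by construction, and other genes shared with white adipocytes summed to 1978 and 1871 CPM.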

How the data were processed

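The authors deposited whole UMI counts per gene and nucleus, without normalization, made with the BD Rhapsody pipeline. The headers of 2 of the 3 tables name GRCm38 with GENCODE vM19, but nothing precedes the sham table, for which GRCm38 was assumed. The submitters' processing notes name Seurat 4.0.6 and, for these mouse libraries, the build GRCh38. The removal of debris and ambient RNA that the study applied later was not repeated. Nor was its removal of contaminating clusters and of doublets, called there from mutually exclusive marker genes. No doublet caller was run. The study also gated doublets out when sorting, before nuclei were loaded, so doublets formed after that step may remain. The rule on endothelial genes limits BA and EC pairs but not pairs of BAs with pericytes or Schwann cells.

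The nuclei, the 25 pathway lists and the 11 marker lists were chosen with earlier results of these data known. Nuclei of the 2 groups were drawn at random in equal numbers per bin of total UMIs. UMIs were summed per group, scaled to the total without Ucp1, and compared for genes with at least 200 UMIs, with exact conditional binomial 95% intervals that cover counting error only. Within a library no test was made. Genes named are the 12 largest and 12 smallest ratios without the selection genes, the 4 members of each pathway list with most UMIs, genes past 0.3 alike in all 3 libraries, Kit and Ucp1. Some genes under this rule are not reported here. Ghr, Ifrd1, Hspa1a, Cox6a1, Ndufa8, Esrrg, Slc25a20, Prkaca, Adrb1, Adrb3, Adra1a, Hspb1, Dnajb1, Dnajb4 and Chordc1 fall outside this rule and were chosen after their values were seen.

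The fit over libraries was also added after the values were seen. It used edgeR 4.0.16 (TMM factors from 0.975 to 1.014, glmQLFit and glmQLFTest, 2 residual degrees of freedom) on summed counts with the library as a term, so that each library pairs its own 2 groups. The libraries differ in treatment, and the fit pooled the spread over all genes, so p-values rest on that common spread and not on a gene's own spread over the 3 libraries. Between untreated BA nuclei the dispersion was 2.95 for Ghr, 2.73 for Gnas, 3.56 for Ifrd1, 1.94 for Gpd1 and 7.74 for Hspa1b. The median over 6544 genes was 1.21. The SEs, p-values and counting intervals of these called genes may therefore be too small. DESeq2 1.42.0 was an alternative. Positions came from GENCODE vM21 and the sequences of all 3 genes from RefSeq on GRCm38.p6. The comparisons were tested on simulated data. Python 3.11.15, numpy 2.4.6, scipy 1.17.1, pandas 2.3.3, matplotlib 3.10.9 and R 4.3.3 were used.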

Additional observations from a re-analysis of the deposited data

How the results depend on the processing

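Within the untreated library, the counts of genes at or above 0.3 and at or below −0.3 (159 and 149 of 3255) moved by over 1.5 times with no matching on UMIs (393 and 382 of 5672 genes), at least 3 Ucp1 UMIs (64 and 87 of 1375), weighted use of all nuclei (75 and 87 of 3255), gene minimums of 20 UMIs (1664 and 1654 of 10265), 100 UMIs (451 and 426 of 5554) and 400 UMIs (28 and 29 of 1520), and the mean log2 of counts per 10000 plus 1 (1 and 2), and with no endothelial UMI allowed the higher count was 88 of 1768. Of 450 list medians under alternatives, 444 stayed within the median bounds of their members' counting intervals. Those bounds are those of a typical single gene, −0.14 to 0.32 for the nuclear respiratory chain. They are wide for a list median, so staying within them is a weak check. The other 6 were fatty acid synthesis (0.15) and nuclear long noncoding RNAs (−0.10) without matching, futile cycles (0.072) without the 25% of nuclei richest in heat shock UMIs, mitochondrial genes of the respiratory chain (−0.12) when matched also on the mitochondrial share, and immediate early genes in a second draw (0.12) and at 3 or more Ucp1 UMIs (−0.42).

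The fit over libraries called 6 genes. It called 12 in a second draw (4 of the 6 among them), 90 without matching, 2 with narrower bins of total UMIs, 10 at 1 or more and 11 at 3 or more Ucp1 UMIs, 1 at 1200 UMIs per nucleus or more, 19 at 10% mitochondrial UMIs or less, and 0 when matched on the mitochondrial share, with no endothelial UMI, without the nuclei richest in heat shock UMIs, with DESeq2, or with no replicate block, that is no term for the library. Leaving out 1 library gave 0 to 8 calls. Hspa1b turned to 0.0098 without the nuclei richest in heat shock UMIs, which the construction of that alternative removes. Over the alternatives in which they were tested, Hspa1b kept its call in 12 of 21, Ghr in 11, Ifrd1 in 10, Gnas in 9 and Gpd1 in 8 of 21, and Plce1 in 5 of 17. The cause of the other changes was not tested. No paired analysis was possible because the labels give no replicate that pairs animals, and the pairing in the fit is that of 2 groups of nuclei in 1 library. Values of a single library have no replicate to leave out, and depth limits the ratios of genes with few UMIs.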
